A study of Mus musculus with 10 samples.

Results

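The genes described here encode enzymes and regulators of cholesterol and fatty acid synthesis in OP9 cells, a mouse stromal line. They were chosen by symbol from a list of 32, of which 31 were found among the 26888 genes of the deposited expression table. Hmgcs1 was not analysed here. All 31 exceeded 0.5 RPM (reads assigned to the gene, scaled to 1 M such reads per library) in at least 1 library and entered the test.

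The labels give OP9 as a line from foetal calvaria of the strain (C57BL/6xC3H)F2-op/op, whereas the study's text names newborn mice, and every library came from this line. RNA was sequenced from 6 reaggregates, cultured for 48 h on nitrocellulose filters where medium met gas, and from 4 flat cultures kept under medium. Reaggregates 1, 3 and 5 had no IL-3, and reaggregates 2, 4 and 6 received it at a labelled dose of 200 µg/µl. Flat cultures 2 and 4 are labelled with the de Bruijn laboratory, while the labels of flat cultures 1 and 3 and of the reaggregates name none. The study's methods state that cells for reaggregates were dispersed with trypsin beforehand and with collagenase and dispase before RNA was extracted, and that flat cells had been kept in either of 2 groups. The stated reason for pooling IL-3 groups and cell sources was that IL-3 did not affect transcription and that source and passage number brought equal variance. The comparison asks how culture as a reaggregate at the liquid-gas interface changes the line's transcriptome. The labels do not say whether replicates came from separate cultures, so the p-values measure only the spread between these libraries, which may be technical.

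The commonest value above 0 in each library, taken as 1 read, corresponded to depths between 7.35 and 9.43 M reads on genes in reaggregates and between 8.26 and 8.70 M in flat cultures. At this depth 3 reads amount to 0.318 RPM in the deepest library and 0.408 RPM in the shallowest, a limit that takes in counting error alone. In reaggregates Scd1 lay nearest to that floor among the 31 genes.

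Cholesterol is built from acetyl-CoA through mevalonate, isoprenoid pyrophosphates and squalene, and the first of these steps also supply prenyl groups and ubiquinone. Fatty acids are built from the same acetyl-CoA and are then lengthened and desaturated. Transcription of both sets of enzymes is driven by the SREBP proteins, which the escort protein SCAP carries to the Golgi for cleavage and which the INSIG proteins hold back in the endoplasmic reticulum when sterols are abundant.

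Of the 16 measured enzymes of cholesterol synthesis, 6 were called lower in reaggregates than in flat cultures, 9 were lower by adjusted p and 9 had overlapping groups, while none of the 9 enzymes of fatty acid synthesis was called. A gene was called where its levels differed 2-fold or more with a limma adjusted p no greater than 0.05. Of the 31 genes, 6 were called lower, where 6.53% of the 16933 genes tested were. They were Mvk, Mvd, Idi1, Fdps, Lss and Hsd17b7, all enzymes of cholesterol synthesis. None was called higher, where 7.32% of all genes were. By adjusted p alone, 11 were lower and 2 higher, against 15.7% and 13.6% of all genes. With consecutive reaggregates averaged these counts were 5 and 0, and the share of all genes by adjusted p was not computed. By fold and adjusted p, 429 of all genes were then called lower and 321 higher, instead of 1106 and 1239. Every reaggregate lay below every flat culture for 9 of the 31 and above every flat culture for 1, against 11.4% and 7.8% of all genes. The median log2 fold change was −0.63 over the 31 genes and 0.04 over all genes tested. Over the 16 cholesterol enzymes it was −0.93, with 15 below 0. Over the 9 enzymes of fatty acid synthesis, elongation and desaturation it was 0.24, with 4 below 0. These medians pool both kinds of flat culture and differed between them. Against flat cultures with no laboratory named, the median was −0.9994 over the 31 genes and −0.05 over all genes. Against those labelled de Bruijn it was −0.05 and 0.13. In the same order of flat cultures, it was −1.37 and −0.47 over the cholesterol enzymes. Over the fatty acid enzymes it was −0.13 and 1.01. In bulk libraries such as these, fewer cells of a type and less RNA per cell cannot be told apart.

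**Figure D1:**
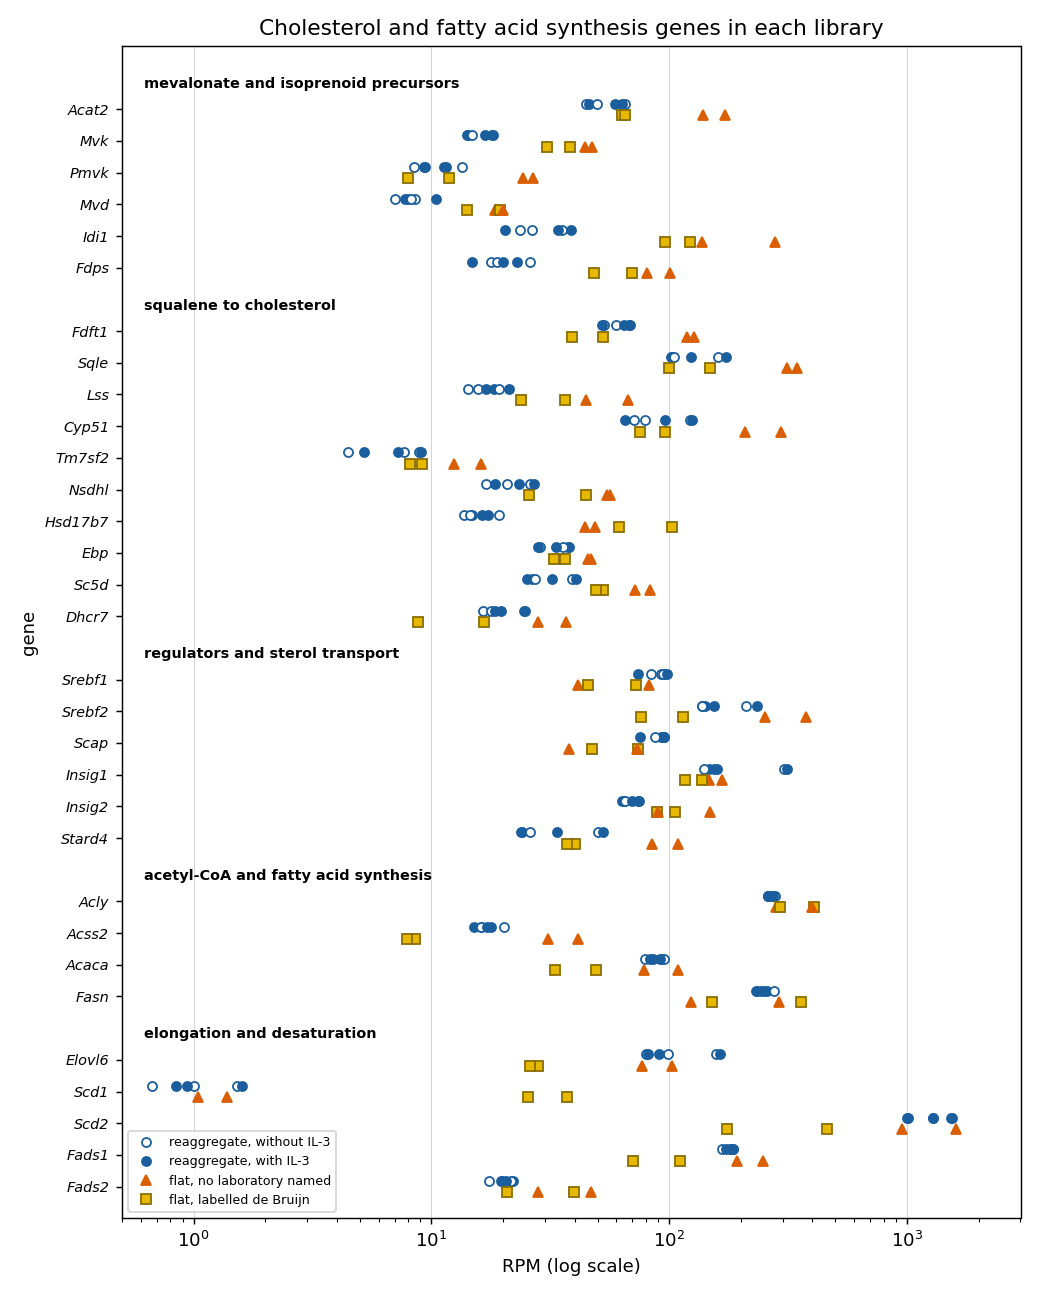
Level of each of the 31 genes in the 10 libraries, in RPM on a log axis, with reaggregates as circles (filled with IL-3, open without), flat cultures with no laboratory named as triangles and those labelled de Bruijn as squares. All 6 reaggregates sit to the left of all 4 flat cultures for genes such as Idi1, Fdps, Mvk and Hsd17b7, and the squares of Scd1, at 37.3 and 25.4 RPM, stand apart from its other points.

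The early steps from acetyl-CoA to farnesyl pyrophosphate held 4 of the 6 genes called. Idi1 (chromosome 13, 8884852 to 8891641, in NCBI37/mm9 as are all gene positions here) encodes the isomerase that interconverts the 5-carbon isoprenoid units. It was at 279, 96.3, 138 and 122 RPM in flat cultures 1 to 4, and at 20.5, 30.4 and 38.8 RPM in the lowest, median and highest reaggregate. The groups did not overlap, and flat culture 1 was the highest library. The log2 fold change was −2.31 (SE 0.283, limma adjusted p = 0.0003196), or 4.95-fold lower between the group means of log2 values, and all 6 reaggregates were below all 4 flat cultures. Idi1 shares reads with a copy: 83.5% of the 50-base windows of its annotated transcripts also occur in the pseudogene Gm13502, which was listed at between 3.11 and 42.6 RPM, and the authors divided reads that map to several places. Its level is therefore uncertain.

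Fdps (chromosome 3, 88897514 to 88905881) encodes farnesyl pyrophosphate synthase, whose product feeds the sterol, dolichol and ubiquinone branches. Its values in flat cultures 1 to 4 were 80.9, 69.9, 101 and 48.3 RPM, against 14.8, 19.5 and 26.0 RPM in the lowest, median and highest reaggregate. The lowest flat culture thus still lay above every reaggregate, and the log2 fold change was −1.85 (SE 0.217, limma adjusted p = 0.0002584). For Fdps, 53.0% of the 50-base windows recur in other annotated genes, the pseudogene Gm3571 first among them, so that its level is uncertain too.

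Mvk (chromosome 5, 114894278 to 114910600), mevalonate kinase, was at 44.4, 38.4, 47.4 and 30.5 RPM in the flat cultures and at 14.1, 15.8 and 18.1 RPM in the lowest, median and highest reaggregate. The flat cultures were all above the reaggregates, with a log2 fold change of −1.29 with an SE of 0.165 (limma adjusted p = 0.0004058). Mvd (chromosome 8, 124957496 to 124967322), the decarboxylase that yields isopentenyl pyrophosphate, was at 18.5, 19.5, 20.1 and 14.1 RPM in flat cultures and at 7.06, 8.10 and 10.5 RPM in reaggregates. The groups of Mvd did not overlap either, and the log2 fold change was −1.07 (SE 0.176, limma adjusted p = 0.001692). With the IL-3 reaggregates only, Mvd was not called, at a log2 fold change of −1.01 (limma adjusted p = 0.06666). No 50-base window of Mvk or Mvd recurred in another annotated gene. Acat2, which joins acetyl-CoA units at the entry to the pathway, had a log2 fold change of −0.88 (limma adjusted p = 0.0364), below the fold threshold, and its flat cultures 2 and 4, at 63.5 and 65.0 RPM, lay within the reaggregate range of 44.5 to 65.4 RPM. Without flat culture 2 or 4 it was called lower, at −1.09 and −1.08. Of its 50-base windows, 32.8% recur in other genes, Acat3 foremost. Pmvk, the kinase after Mvk, had a log2 fold change of −0.58 and overlapping groups.

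Among the 10 measured enzymes from squalene onwards, 2 were called lower and 4 were lower by adjusted p, against 6.53% and 15.7% of all genes. Hsd17b7 (chromosome 1, 171879666 to 171899372), which reduces the 3-keto group during removal of the C4 methyls, was at 44.3, 103, 48.9 and 61.5 RPM in flat cultures 1 to 4. In reaggregates it was at 13.7, 15.6 and 19.3 RPM as lowest, median and highest. All reaggregates were below all flat cultures, with a log2 fold change of −1.91 with an SE of 0.224 (limma adjusted p = 0.0002577). Unlike the other genes called, Hsd17b7 had its highest values in the flat cultures labelled de Bruijn. Lss (chromosome 10, 75994333 to 76019883), the cyclase that forms lanosterol, was at 44.8, 36.3, 67.3 and 23.8 RPM in flat cultures and at 14.3, 17.7 and 21.2 RPM in reaggregates. Its groups did not overlap, although flat culture 4 came close to the highest reaggregate, and the log2 fold change was −1.18 (SE 0.249, limma adjusted p = 0.006055). Without flat culture 3 the log2 fold change of Lss was −0.93, below the fold threshold. With consecutive reaggregates averaged its limma adjusted p was 0.07919, where its alternatives ranged from 0.001415 to 0.1006.

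Sc5d, a sterol desaturase, was at 82.7, 52.7, 72.0 and 49.0 RPM in flat cultures and at 25.3, 29.8 and 40.5 RPM in the lowest, median and highest reaggregate. Its groups did not overlap, and at a log2 fold change of −0.99 (limma adjusted p = 0.004904) it fell short of the fold threshold. Nsdhl, which works in the same C4 demethylation as Hsd17b7, had a log2 fold change of −0.99 (limma adjusted p = 0.01024), and flat culture 4, at 25.7 RPM, lay within its reaggregates. For Fdft1, Sqle, Cyp51, Tm7sf2 and Ebp, which make and epoxidise squalene, demethylate lanosterol, reduce a sterol double bond and shift another, the log2 fold changes ran from −0.69 to −0.26 and missed the threshold on adjusted p. Fdft1 overlaps Ctsb on the opposite strand over 26.9% of its exon bases, and reads from overlapping genes cannot be told apart without strand. Dhcr7, the last reductase of the pathway, had a log2 fold change of 0.02, or −0.02 under quantile normalization. Flat cultures 1 and 3 were above every reaggregate for Fdft1, Sqle, Cyp51, Tm7sf2, Ebp and Dhcr7, and flat cultures 2 and 4 were not, except for Tm7sf2, where flat culture 4 was at 9.11 RPM and the highest reaggregate at 9.09 RPM. Without flat culture 4, 10 of the 31 genes were called lower, where 815 of all 16933 genes were instead of 1106. Acat2, Sqle, Nsdhl and Sc5d were added, at log2 fold changes of −1.08, −1.01, −1.23 and −1.11. Sc5d was also called lower under quantile normalization, median-ratio scaling and a pseudocount of 0.1 RPM, at −1.07, −1.004 and −1.002, without flat culture 2, at −1.07, and without reaggregate 3, 4 or 6, at −1.06, −1.07 and −1.0005. Nsdhl was called lower under quantile normalization, at −1.05, and without reaggregate 3, 4 or 6, at −1.03, −1.05 and −1.005. Without flat culture 3, 3643 genes were called in all instead of 2345.

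The regulators did not move in one direction. Srebf1, which encodes the SREBP1 isoforms, was at 41.5, 72.2, 82.4 and 45.6 RPM in flat cultures and at 73.8, 93.0 and 97.9 RPM in the lowest, median and highest reaggregate. Only flat culture 3 lay within the reaggregate range, and the log2 fold change was 0.62 (SE 0.198, limma adjusted p = 0.03718). Scap was at 38.0, 74.1, 73.0 and 47.5 RPM in flat cultures and at 75.6, 93.3 and 95.5 RPM in reaggregates. This was the 1 gene of the 31 with every reaggregate above every flat culture, with a log2 fold change of 0.68 with an SE of 0.192 (limma adjusted p = 0.02278). Both rises were smaller than 2-fold, and 18.9% of the exon bases of Scap overlap a gene on the opposite strand.

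Srebf2, whose product acts chiefly on cholesterol synthesis, was at 253, 114, 376 and 76.4 RPM in flat cultures 1 to 4 and at 137, 148 and 235 RPM in the lowest, median and highest reaggregate. The reaggregates lay between the flat cultures of either label, and the log2 fold change was −0.04 (SE 0.385, limma adjusted p = 0.9454). Insig1, itself a known SREBP target, was at 147, 138, 166 and 116 RPM in flat cultures and at 140, 157 and 312 RPM in reaggregates, where reaggregates 3 and 4 were high, at 305 and 312 RPM. Its log2 fold change was 0.44 and missed the threshold (limma adjusted p = 0.2097). Insig2 was at 149, 89.0, 89.8 and 106 RPM in flat cultures and at 63.2, 67.7 and 74.8 RPM in reaggregates. No flat culture of Insig2 reached down to the reaggregates, with a log2 fold change of −0.63 with an SE of 0.158 (limma adjusted p = 0.01329). Stard4, a cytosolic sterol carrier, had a log2 fold change of −0.87 and overlapping groups.

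Among the 4 genes that supply acetyl-CoA and build fatty acids, none was called, where 6.53% of all genes were called lower and 7.32% higher. Acly, the ATP citrate lyase that releases acetyl-CoA in the cytosol, was at 280, 408, 397 and 291 RPM in flat cultures and at 260, 265.5 and 278 RPM in the lowest, median and highest reaggregate. Its groups did not overlap, and the log2 fold change of −0.34 missed the threshold (limma adjusted p = 0.08514). Acss2, which activates acetate, Acaca, the carboxylase that commits acetyl-CoA to fatty acids, and Fasn, the synthase, had log2 fold changes of −0.02, 0.51 and 0.24 and overlapping groups. Of the elongase and the desaturases, Fads2 alone passed on adjusted p, by which 15.7% of all genes were lower and 13.6% higher. Its log2 fold change was −0.67 (limma adjusted p = 0.03525), and flat culture 4, at 20.8 RPM, lay within the reaggregates. Elovl6, which lengthens palmitate, was at 77.0, 28.0, 103 and 26.0 RPM in flat cultures and between 79.6 and 164 RPM in reaggregates, a log2 fold change of 1.12 that narrowly missed the threshold (limma adjusted p = 0.05274). It was called higher with at least 1 RPM required in 4 libraries, under quantile normalization, under median-ratio scaling, with the replicate number as a block, and without flat culture 1 or 3, at log2 fold changes of 1.33 and 1.47. Without flat culture 4 its log2 fold change fell to 0.81, below the fold threshold. Against flat cultures with no laboratory named Elovl6 was at only 0.26 and was not called (limma adjusted p = 0.5834). Against those labelled de Bruijn it was called, at 1.97 (limma adjusted p = 0.0005486). Fads1 had a log2 fold change of 0.36 and overlapping groups.

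The stearoyl-CoA desaturases Scd1 and Scd2 had the widest spread among flat cultures. Scd1 was at 1.38, 37.3, 1.04 and 25.4 RPM in flat cultures 1 to 4 and between 0.668 and 1.60 RPM in reaggregates. The flat cultures labelled de Bruijn were high, and the other flat cultures lay within the reaggregates. Scd2 was at 951, 461, 1600 and 175 RPM in flat cultures and between 995 and 1540 RPM in reaggregates, so that here the flat cultures labelled de Bruijn were low. Neither gene passed against all 4 flat cultures, where the log2 fold changes were −2.23 and 1.09 (limma adjusted p = 0.06209 and 0.1085). Without flat culture 3 both were called, at −2.98 and 1.56, and without flat culture 1 Scd1 was, at −2.88. Other omissions made the differences smaller. Scd1 was at −1.44 without flat culture 2 and Scd2 at 0.50 without flat culture 4, and neither was called there.

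For many of the 31 genes the difference from reaggregates had another size against either kind of flat culture, while for others, such as Srebf1 and Acly, it was nearly the same, at log2 fold changes of 0.60 and 0.63 and of −0.32 and −0.37. Against flat cultures 1 and 3, with no laboratory named, 15 of the 31 genes were called lower and none higher, where 6.17% and 3.7% of all genes were, and 13 of the 16 cholesterol enzymes were among the 15. Against flat cultures 2 and 4, labelled de Bruijn, 5 were called lower and 5 higher, where 10.5% and 15.2% of all genes were. Idi1, Fdps, Mvk and Hsd17b7 were called lower in each, while Mvd and Lss were called lower against flat cultures 1 and 3 and missed the fold threshold against the others, at log2 fold changes of −0.96 and −0.73. Both comparisons use the same 6 reaggregates. Since the source of the cells in reaggregates is not labelled, no comparison could be made within a source.

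Sqle, Cyp51, Fdft1 and Pmvk were called lower against flat cultures 1 and 3 and not against flat cultures 2 and 4. Sqle, the squalene epoxidase, was at 313 and 346 RPM in flat cultures 1 and 3, at 148 and 100 RPM in flat cultures 2 and 4, and between 102 and 174 RPM in reaggregates. Its log2 fold change was −1.39 against the former (limma adjusted p = 0.005018) and 0.04 against the latter (limma adjusted p = 0.9057). Those of Cyp51 were −1.46 and 0.08, those of Fdft1 −1.01 and 0.42, and those of Pmvk −1.25 and 0.09. Compared directly between the kinds of flat culture, Sqle, Cyp51, Fdft1 and Pmvk all missed the threshold (limma adjusted p = 0.06617, 0.05492, 0.05106 and 0.09275). Under quantile normalization Sqle, Cyp51 and Fdft1 were called there. Srebf2 had opposite signs, −0.90 and 0.82 (limma adjusted p = 0.0433 and 0.02089), and so did Acss2, −1.05 and 1.01 (limma adjusted p = 0.004558 and 0.0009576). The 5 genes called higher against the flat cultures labelled de Bruijn were Acss2, Acaca, Elovl6, Scd2 and Fads1, all on the fatty acid side, where Scd2 had the largest log2 fold change, at 2.14 (limma adjusted p = 0.0006577). Scd1 was called lower there, by a log2 fold change of −4.33 (limma adjusted p = 4.366e-06), and was at −0.13 against flat cultures 1 and 3.

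**Figure D2:**
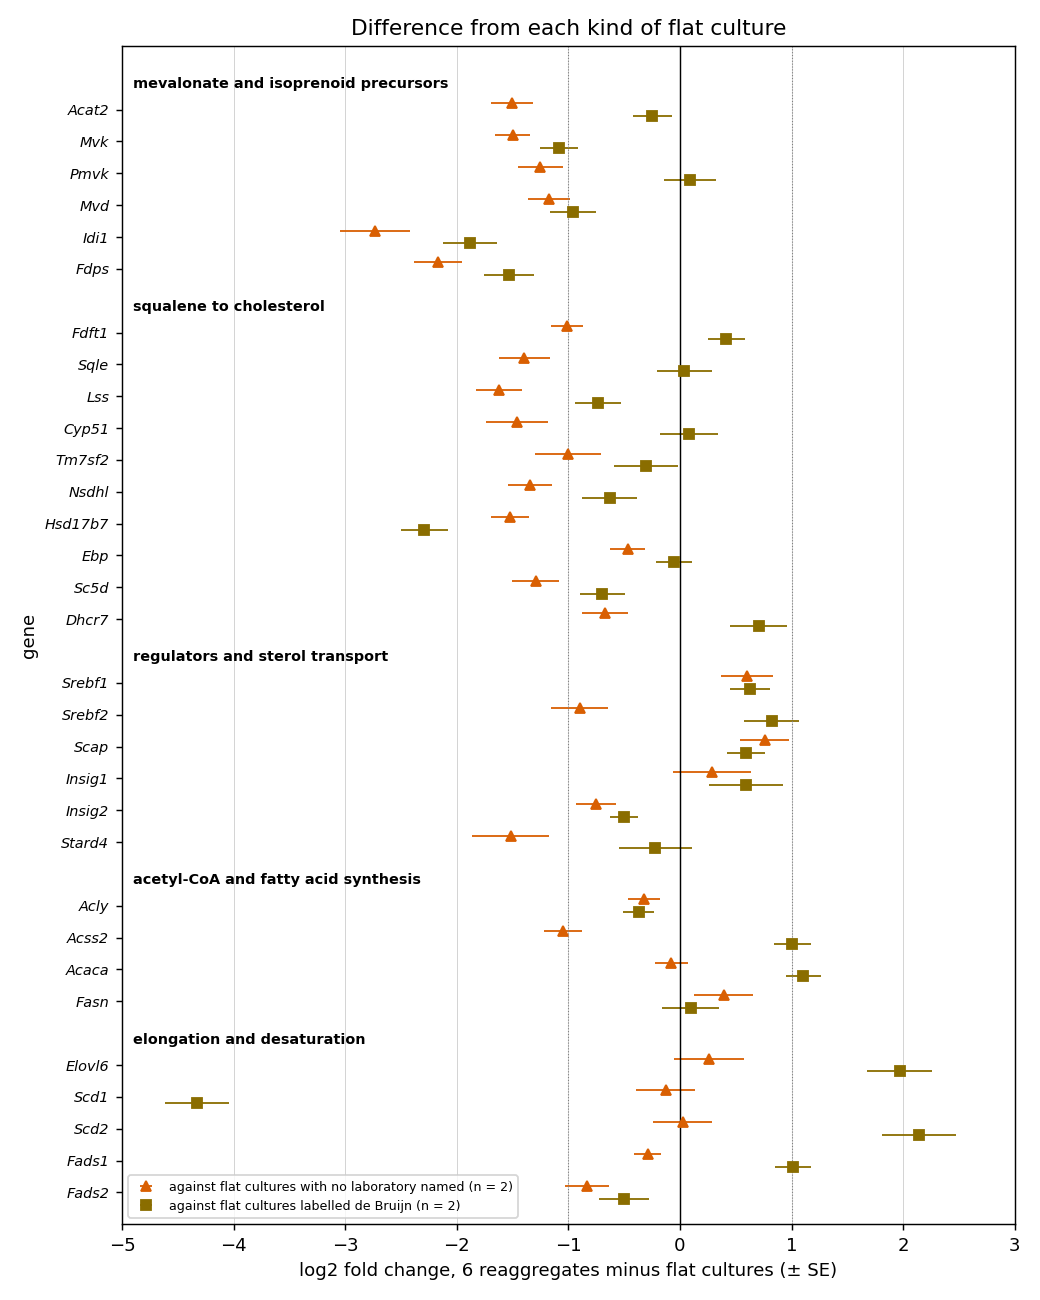
Log2 fold change of each gene between the 6 reaggregates and either kind of flat culture (triangles, no laboratory named, n = 2; squares, labelled de Bruijn, n = 2), with bars of ± 1 SE from limma and dotted lines at a fold change of 2. Triangles of the cholesterol enzymes lie at or below −0.47, while the squares run from −2.29 for Hsd17b7 to 0.71 for Dhcr7.

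Compared directly, flat cultures 2 and 4 gave lower calls than flat cultures 1 and 3 for Acss2 and Elovl6 and a higher call for Scd1, against 3.87% and 1.82% of all genes. Log2 differences were −2.06 (limma adjusted p = 0.02982), −1.70 (limma adjusted p = 0.03487) and 4.20 (limma adjusted p = 0.008539). Leaving out any 1 of the 4 flat cultures leaves a lone library assumed to vary like the others. These calls were then lost, as they were over all genes, so the loss is not particular to the 31 genes. In 22 of the 31 genes both flat cultures with no laboratory named lay above both labelled de Bruijn, as in 34.1% of all genes tested, and in 2, Scd1 and Hsd17b7, the order was the opposite, as in 18.2%.

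No gene of the 31 was called between reaggregates with and without IL-3, and neither was any of the 16933 genes (0%, limma). At an unadjusted p under 0.05 there were 0 of the 31 and 68 of all genes. That fit ignores the likeness of consecutive reaggregates given below and counts the spread between such pairs as error, so these counts are too low to be read as no effect. With consecutive reaggregates as a block no gene was called either. Log2 differences of the 31 genes ran from −0.11 to 0.20. Consecutive reaggregates, which differ in IL-3, were closer to each other than to the rest, with an SD of their log2 difference over genes between 0.281 and 0.291 and between 0.526 and 0.753 for other pairs. With each such pair averaged, 5 of the 31 genes were called lower, all but Lss, and 750 genes in all. By adjusted p alone 5 were then lower and 0 higher, so that besides Lss also Acat2, Nsdhl, Sc5d, Insig2 and Fads2 and both genes that had been higher, Srebf1 and Scap, no longer passed. The share of all genes that passed by adjusted p in that fit was not computed.

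Cholesterol enzymes also differed among the reaggregates themselves. In 21 of the 31 genes reaggregates 3 and 4 were both above the other 4, as in 18.8% of all genes, a description chosen after the values were seen. They included Srebf2, Insig1, Stard4, Elovl6 and 13 of the 16 cholesterol enzymes. Insig1 was between 140 and 159 RPM in the other reaggregates. Stard4 was at 50.3 and 52.9 RPM in reaggregates 3 and 4 and between 23.8 and 33.8 RPM in the others, and Cyp51 at 122 and 125 RPM against 65.2 to 96.0 RPM. Mvk, Scd1 and Scd2 were highest in reaggregates 5 and 6.

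Summed over the 16 cholesterol enzymes, the level was 1674, 890.6, 1485 and 716 RPM in flat cultures 1 to 4 and 467, 548 and 701 RPM in the lowest, median and highest reaggregate. Every flat culture lay above every reaggregate, flat culture 4 by the least. Without Idi1, whose level is uncertain, a sum chosen after the values were seen, flat culture 4 was at 594 RPM and reaggregates 3 and 4 at 652 and 667 RPM, so that the groups overlapped. The 9 fatty acid enzymes summed to 1764, 1500.0, 2834 and 801 RPM in flat cultures and to between 1971 and 2457 RPM in reaggregates, within the span of the flat cultures. Per kilobase of annotated exon, the mean level of Scd2 was 234 RPM per kb in reaggregates and 146 in flat cultures, among which it varied widely, and that of Acly was 50.6 and 65.2 RPM per kb.

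Proliferation markers were lower in reaggregates too. All 14 were lower in reaggregates by adjusted p and 13 were called lower, against 15.7% and 6.53% of all genes, and summed they were at 2467, 980, 2065 and 1191 RPM in flat cultures 1 to 4 and between 392 and 564 RPM in reaggregates. Flat cultures 1 and 3 were highest in this sum and in that of the cholesterol enzymes, but the order of the other libraries differed. Reaggregates 3 and 4 had the highest cholesterol sums among reaggregates, at 688 and 701 RPM, while reaggregate 3 had the lowest proliferation sum, at 392 RPM, and reaggregate 6 the highest, at 564 RPM. Flat culture 2 lay above flat culture 4 in the cholesterol sum and below it in the proliferation sum. Top2a was the most abundant of these markers by mean RPM, no marker was at 0, and the most negative log2 fold changes were those of Aurka, Ccnb1 and Cdc2a, at −2.75, −2.70 and −2.35. Their part in the result was not tested.

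Of the 8 adipocyte markers, 5 were, like Scd1, higher in the flat cultures labelled de Bruijn than in the other flat cultures and the reaggregates. The 8 measured summed to 86.3, 926, 113 and 1119 RPM in flat cultures 1 to 4 and to between 68.8 and 93.3 RPM in reaggregates. Fabp4, a fatty acid binding protein and the most abundant of them by mean RPM, was at 31.3, 435, 47.2 and 711 RPM in flat cultures, and Pparg, the adipocyte transcription factor, at 49.4, 395, 58.1 and 295 RPM. Both were called lower in reaggregates, against 6.53% of all genes, and the other markers were not. Against flat cultures with no laboratory named neither was called, at log2 fold changes of −0.45 and −0.34 (limma adjusted p = 0.361 and 0.122). Cd36, Cidec and Plin1 were also higher in the flat cultures labelled de Bruijn, at 91.5 and 109, 2.98 and 3.16, and 1.43 and 1.21 RPM, than in the other flat cultures, at 5.64 and 7.42 RPM for Cd36 and at 0 for Cidec and Plin1. Between the kinds of flat culture these 3 were called (limma adjusted p = 0.006624, 0.008645 and 0.01845), and so were Fabp4 and Pparg, where 1.82% of all genes were called higher in those labelled de Bruijn. Of the remaining markers, Retn was listed at 0 in every library and Cfd at 0 in every flat culture and at most at 0.136 RPM in reaggregates. Adipoq had the opposite sign, at a log2 fold change of 0.34 that was not called, and was at most at 0.768 RPM, in a reaggregate. The part of these genes in the values of Scd1 was not tested.

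**Figure D3:**
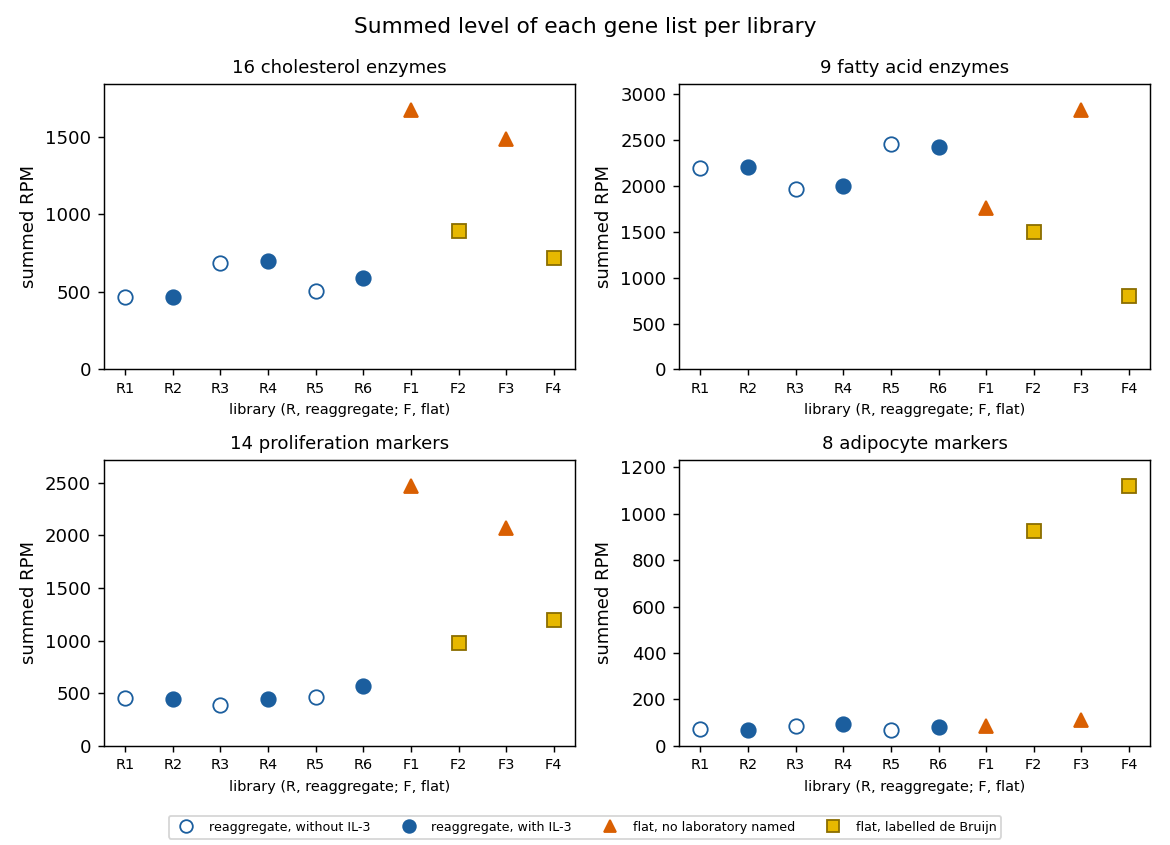
Summed RPM in each library for the 16 cholesterol enzymes, the 9 fatty acid enzymes, 14 proliferation markers and 8 adipocyte markers, with libraries along the x axis and symbols for the kind of culture. Flat cultures 1 and 3 are highest for the cholesterol enzymes, at 1674 and 1485 RPM, and for proliferation markers, at 2467 and 2065 RPM, whereas flat cultures 2 and 4 are highest for adipocyte markers, at 926 and 1119 RPM.

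Of the 9 stromal markers, 6 were called higher in reaggregates, where 7.32% of all genes were, and Col1a2 was the most abundant by mean RPM. Dcn, Col3a1 and Col1a1 had log2 fold changes of 5.28, 4.11 and 1.93. Those of Dcn were 3.22 against flat cultures with no laboratory named and 7.34 against those labelled de Bruijn, those of Col3a1 2.10 and 6.12 and those of Col1a1 1.14 and 2.72. Col1a2 was not called against the former (limma adjusted p = 0.07667). Dcn was at 0.119 and 0.486 RPM in flat cultures 2 and 4, where 3 reads amount to 0.357 and 0.363 RPM. Its values of 5.28 and 7.34 thus depend on the pseudocount and are not exact. Thy1 was at most at 0.359 RPM. Vim and Mcam, at −0.54 and −0.40, were not called, and Vim lay between 4140 and 4830 RPM in reaggregates, below every flat culture. Endothelial markers summed to at most 1.09 RPM and those of blood cells to at most 3.65 RPM, and Ptprc and Emr1 were listed at 0 in every library. Of the 8 immediate early genes, 4 were called higher in reaggregates, against 7.32% of all genes, with Fosb, Atf3 and Fos at log2 fold changes of 4.19, 4.08 and 2.53. Against flat cultures with no laboratory named only Atf3 of the 8 was called, where 3.7% of all genes were called higher. Fos was at 436 RPM in flat culture 3, above every reaggregate, and the groups of Fosb overlapped as well. Dusp1 and Ier2 were at −0.52 and −0.30 and were not called. Their summed level was 470, 795, 2898 and 859 RPM in flat cultures 1 to 4 and between 1999.7 and 2526 RPM in reaggregates, led by Egr1 and with none at 0. Their part in the values of the cholesterol genes was not tested.

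Genes around the pathway gave the surroundings of these values. In branches that draw on its isoprenoids, 14 genes for prenylation, dolichol and ubiquinone, none was called, where 6.53% of all genes were called lower and 7.32% higher. Their median log2 fold change was −0.21. Of 10 genes for the cleavage and turnover of SREBP and of the sterol-regulated reductase none was called either, with a median of 0.02. Among 14 genes of sterol efflux, uptake, transport and storage, 3 were called higher and none lower, where 7.32% and 6.53% of all genes were, with a median of 0.31. Abca1, the cholesterol efflux transporter, was at 48.0, 4.89, 88.9 and 1.82 RPM in flat cultures and at 188, 308 and 390 RPM in the lowest, median and highest reaggregate. Every reaggregate of Abca1 was above every flat culture, those labelled de Bruijn were lowest, and the log2 fold change was 4.21 (SE 0.853, limma adjusted p = 0.00504). Against flat cultures with no laboratory named it was 2.10, and against those labelled de Bruijn 6.32. With each library left out it ran from 3.30 without flat culture 4 to 5.06 without flat culture 3. Abca1 was not called with consecutive reaggregates averaged or with the reaggregates without or with IL-3 alone, at limma adjusted p of 0.07265, 0.06745 and 0.0757, where its alternatives started from 1.791e-06. The log2 fold changes there were about as large, at 4.21, 4.24 and 4.18. Mylip, the ligase that degrades the LDL receptor, was at 19.5, 7.63, 27.2 and 8.87 RPM in flat cultures and between 70.3 and 106 RPM in reaggregates. Its log2 fold change was 2.52 (SE 0.316, limma adjusted p = 0.000368), without overlap. Lima1 had a log2 fold change of 1.56 (limma adjusted p = 0.004388).

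On the fatty acid side, 3 of 14 tested genes of other elongation, activation and supply steps were called lower and none higher, against 6.53% and 7.32% of all genes, with a median log2 fold change of −0.45. Me1, malic enzyme, which yields NADPH for lipid synthesis, was at 135, 128, 109 and 119 RPM in flat cultures and between 35.4 and 59.4 RPM in reaggregates. The groups of Me1 lay far apart whatever the kind of flat culture, with a log2 fold change of −1.47 with an SE of 0.157 (limma adjusted p = 0.0001616). Elovl7, another elongase, and Acsl1, an acyl-CoA synthetase, had log2 fold changes of −1.58 and −1.03, the former from levels of at most 2.92 RPM. Acsl1 fell short of the fold threshold against the flat cultures labelled de Bruijn, at −0.84, with the IL-3 reaggregates only, at −0.9976, and without reaggregate 4 or flat culture 1 or 3, at −0.99, −0.97 and −0.97. Of 10 tested glycerolipid genes, Lpin1, a phosphatidate phosphatase, and Dgat1, which makes triglyceride, were called higher, against 7.32% of all genes, at 2.04 and 1.26, the median was 0.53 and none was called lower. The groups of Dgat1 overlapped. It was not called without reaggregates 1, 2 or 3 or without flat cultures 2 or 4, at limma adjusted p of 0.05128, 0.0541, 0.05042, 0.06869 and 0.08744, nor without any filter on low values, at 0.07148. Against flat cultures with no laboratory named its log2 fold change was 0.48 (limma adjusted p = 0.2635), and against those labelled de Bruijn its limma adjusted p was 0.000147. Nor was it called with either IL-3 group alone or with consecutive reaggregates averaged, at limma adjusted p of 0.1494, 0.1464 and 0.147. Of 20 genes of fatty acid oxidation 1 was called, Etfb, an electron transfer flavoprotein subunit, at −1.29, and the median was 0.14. Of all genes 6.53% were called lower and 7.32% higher, so that this count is not above the background. Etfb missed the fold threshold against flat cultures with no laboratory named, at −0.9942.

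The sequences upstream of the starts were read for known motifs. RefSeq promoter windows in GRCm38.p6, of 250 bases before and 50 after a start, were found for 24 of the 31 genes, 32 windows in all. Fads1, Fdft1, Fdps, Scd1, Scd2, Sqle and Stard4 had none. On either strand, CCAAT, the motif that NF-Y is known to bind, occurred in 20 of the 32 windows, 62.5%, and in 37.4% of all 32851 windows. GGGCGG, a form of the GC box, occurred in 24, or 75.0%, against 35.7% of all windows, and CACGTG, the E-box, in 6, or 18.8%, against 7.15%. TCACNCCAC, a form of the sterol regulatory element, occurred in 0, against 1.24% of all windows, which says only that these letters are not there. A match is a description and not a site.

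All 5 called genes with a window held CCAAT within the 200 bases before the start, 5 times in Mvk, 3 in Hsd17b7, 2 each in Idi1 and Mvd and 1 in Lss. GGGCGG was also in the windows of all 5, and CCAAT was in 14 of the 19 genes with a window that were not called. These 200 bases are given to show how the motif recurs and where it lies, 5′ to 3′ on the strand of the gene, with CCAAT or its complement ATTGG in capitals. In GRCm38.p6 they lie at Hsd17b7 chr1:169969206-169969405 on the minus strand, Idi1 chr13:8885406-8885605 on the plus strand, Lss chr10:76531405-76531604 on the plus strand, Mvd chr8:122443423-122443622 on the minus strand and Mvk chr5:114444069-114444268 on the plus strand.
Hsd17b7: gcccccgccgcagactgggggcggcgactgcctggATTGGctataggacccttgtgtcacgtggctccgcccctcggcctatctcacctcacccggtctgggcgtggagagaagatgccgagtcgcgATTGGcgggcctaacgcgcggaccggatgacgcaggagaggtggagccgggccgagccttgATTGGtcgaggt
Idi1: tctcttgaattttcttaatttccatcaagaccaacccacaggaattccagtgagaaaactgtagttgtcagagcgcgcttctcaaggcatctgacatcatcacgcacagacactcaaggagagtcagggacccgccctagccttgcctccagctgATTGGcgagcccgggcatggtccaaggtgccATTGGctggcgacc
Lss: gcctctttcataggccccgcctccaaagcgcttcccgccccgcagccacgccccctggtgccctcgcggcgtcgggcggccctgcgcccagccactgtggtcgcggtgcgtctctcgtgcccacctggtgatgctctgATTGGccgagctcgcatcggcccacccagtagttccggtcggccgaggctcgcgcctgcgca
Mvd: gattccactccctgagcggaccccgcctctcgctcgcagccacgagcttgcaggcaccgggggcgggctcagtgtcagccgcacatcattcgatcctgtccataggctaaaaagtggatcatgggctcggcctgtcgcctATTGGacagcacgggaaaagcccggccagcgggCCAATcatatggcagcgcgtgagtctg
Mvk: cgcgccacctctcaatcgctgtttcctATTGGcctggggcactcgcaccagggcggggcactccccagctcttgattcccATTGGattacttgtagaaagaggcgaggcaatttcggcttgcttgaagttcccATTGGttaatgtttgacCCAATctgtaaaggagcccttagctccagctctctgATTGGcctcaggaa
The motif nearest to the start began 14 bases before it in Mvk and in Idi1, 12 in Hsd17b7, 27 in Mvd and 62 in Lss.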

How the data were processed

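RNA of 6 reaggregates and 4 flat cultures of OP9 cells was sequenced as 50-base single-end reads, and the strand is not stated. The values are RPM per gene (reads scaled to 1 M per library), deposited by the authors, not divided by gene length. Per the submitters' notes and the study's methods, reads were aligned to NCBI37/mm9 with TopHat 1.2.0, counted on Ensembl genes in GeneProf with reads that map to several genes divided among them, and compared with DESeq. The authors' comparison columns, which hold log2 fold changes and adjusted p-values of reaggregates against flat cultures, were not used. Not all values were whole multiples of 1 read, so no count test was run.

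Groups followed the labels. The log2 of RPM + 0.5 was fitted with limma 3.58.1 (R 4.3.3, mean-variance trend) on all genes above 0.5 RPM in at least 1 library, and p-values were adjusted by Benjamini-Hochberg over all 16933. A call needs a fold change of at least 2 and an adjusted p of at most 0.05. The pseudocount makes fold changes of low genes smaller. The fit was tested on simulated data with independent noise of equal size in each library. That test does not cover the likeness of consecutive reaggregates or the difference between the kinds of flat culture. Alternatives were other pseudocounts, filters and scalings, either kind of flat culture, either IL-3 group, each library left out, consecutive reaggregates averaged and the replicate number as a block.

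All 31 genes found are named. From the other lists (isoprenoid branches, SREBP processing and turnover, sterol efflux, uptake and storage, other fatty acid elongation and activation, glycerolipid synthesis, fatty acid oxidation, and markers of stroma, endothelium, blood cells, adipocytes, proliferation and immediate early response), at most the 3 called genes with the largest absolute log2 fold change and a mean of at least 1 RPM were to be named. Other markers named, among them the most abundant of a list and those not called or near 0, were chosen after their values were seen. Genes and lists were chosen with earlier results of these data known. Gene positions come from an NCBI37 annotation of a later Ensembl release and promoters from RefSeq in GRCm38.p6. Python 3.11.15 and matplotlib 3.10.9 were used for sequences and figures.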

Additional observations from a re-analysis of the deposited data

How the results depend on the processing

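The 6 genes called lower were all called under both other pseudocounts, both other filters, both scalings and the replicate block. Of them, 4 were called against the flat cultures labelled de Bruijn, 5 with reaggregates without IL-3 and with consecutive reaggregates averaged, and 4 with reaggregates with IL-3. The count of genes called lower was 15 against flat cultures with no laboratory named, where 6.17% of all genes were. It ran from 6 to 10 with each library left out, 10 without flat culture 4, where 815 of all genes were. The count called higher was 1 with at least 1 RPM in 4 libraries, 1 under quantile normalization, 1 under median-ratio scaling and 1 with the replicate block. Over all genes 1236, 1213, 1271 and 1885 were called higher in these settings. It was 5 against the flat cultures labelled de Bruijn, where 15.2% of all genes were. With each library left out the count ran from 0 to 2, 2 without flat culture 3, where 2121 of all genes were called higher. Deviations from the group means correlated across genes at −0.04, −0.21, 0.07 and 0.16 between reaggregates and flat cultures of equal number, 1 to 4. At unequal numbers they reached 0.38, for reaggregate 2 and flat culture 3, and −0.33, for reaggregate 6 and flat culture 3. Such values cannot decide whether cultures were paired, since a pairing need not follow the numbers.

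Over all genes 2345 were called, and 4354 against the flat cultures labelled de Bruijn, 819 with reaggregates without IL-3, 637 with those with IL-3 and 750 with consecutive reaggregates averaged. With each library left out the count ran from 1581 without flat culture 4 to 3643 without flat culture 3. The share of calls that were higher was 52.8%, 37.5% against flat cultures with no laboratory named and 59.2% against those labelled de Bruijn, and 42.1%, 43.5% and 42.8% in the smaller sets of reaggregates in the order above. In the other pathway lists, of 14, 10, 14, 14, 10 and 20 tested genes, 9 were called, 4 lower and 5 higher, where 6.53% and 7.32% of all genes were. Against flat cultures with no laboratory named 14 were, 7 lower and 7 higher, where 6.17% and 3.7% of all genes were. Against those labelled de Bruijn 15 were, 9 lower and 6 higher, where 10.5% and 15.2% of all genes were. The count ran from 8 to 14 with each library left out, 14 without flat culture 3. Between the kinds of flat culture 3 of the 31 genes were called, 0 without a filter and 9 under quantile normalization, where 965, 166 and 1763 of all genes were. With each flat culture left out, which leaves a lone library, these calls were lost, as they were over all genes. Fewer libraries enter the smaller sets. Otherwise the cause was not tested.

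Log2 fold changes turned sign against the flat cultures labelled de Bruijn for Pmvk (0.0923), Fdft1 (0.42), Sqle (0.0386), Cyp51 (0.0846), Srebf2 (0.82) and Acss2 (1.01), and against those with no laboratory named for Dhcr7 (−0.67), Acaca (−0.0769) and Fads1 (−0.29). Dhcr7 was at −0.0169 under quantile normalization and −0.0354 with reaggregates without IL-3, where Acss2 was at 0.0108. Srebf2 was at 0.0234 with reaggregates with IL-3 and 0.0523 with the replicate block. With each library left out Dhcr7 ran from −0.36 to 0.31, Srebf2 from −0.42 to 0.34, Acss2 from −0.38 to 0.39 and Fasn from −0.0081 to 0.50. The cause was not tested.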
